A study of Mus musculus with 28 samples.

Results

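Microglia and macrophages sorted from the brains of the same kind of mouse, the 11–12-month-old female CReCOM mouse, were compared here. The 7 libraries of these mice, 4 of microglia and 3 of macrophages, were taken out of the 28 libraries of the series by their group labels, and the count tables of both cell types were joined by gene ID. The study deletes caspase-8 from CD11c-expressing cells to ask how myeloid cells contribute to the neuropsychiatric symptoms of a lupus-like disease, and this comparison asks how its 2 sorted brain populations differ. CReCOM mice are CD11cCre Casp8flox/flox animals, in which Cre under the murine CD11c promoter acts on loxP-flanked Casp8 alleles. The groups set beside them were WT mice (Casp8flox/flox without Cre) of 11–12 months and CReCOM mice of 5–6 months, each again with 4 microglia and 3 macrophage libraries. All mice were female, carried the floxed allele and had gone through behavioral testing. Brains were perfused, the meninges were removed, and CD11b+CD64+ cells were sorted as macrophages (CD45hi) or microglia (CD45lo). Each library is 1 mouse, named below by its replicate number. Mice 1, 3 and 4 gave both cell types by their library names, and mouse 5 gave microglia only. Macrophage libraries were made from 1 ng of RNA and microglia libraries from 2 ng, and the counts come from separate tables, so the cell type, the input and the table cannot be told apart.

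Microglia are the resident macrophages of the brain. They arise from yolk sac progenitors, renew themselves locally and depend on signaling through the CSF1 receptor and on TGF-β, which maintains a program of purinergic receptors, lysosomal enzymes and the transcription factor Sall1. Macrophages that enter the brain from blood come from bone marrow monocytes and are known for Ly6C, the chemokine receptor CCR2 and MHC class II. Both cell types engulf debris, sense nucleic acids and make complement, and the markers that separate them in health can shift with inflammation.

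Values are CPM, the share of a library's counted 3′-end reads that fell on a gene, scaled to the same total in every library. Those of single libraries are listed in the order of mice 1, 3, 4 and 5 for microglia and 1, 3 and 4 for macrophages. A fold is the ratio of the mean CPM. Folds given without 1 library are instead taken from the log2 fold change of the fit that left it out. Log2 fold changes are microglia over macrophages from edgeR's quasi-likelihood test, given ± standard error, with p-values adjusted by Benjamini-Hochberg over all 9058 genes tested. The study's thresholds were kept, so that a called gene has an adjusted p below 0.1 and differs more than 1.5-fold. The 7 libraries held 4194090 to 6570411 counts, so that a count of 0 allows 0.457 to 0.715 CPM (3 counts, counting error only).

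The labels were first checked against the targeted gene and the sort gates. Casp8 (ENSMUSG00000026029) was at 30.8, 30.9, 27.0 and 27.3 CPM in microglia and 87.2, 77.8 and 17.6 CPM in macrophages. The groups overlapped through mouse 4, whose macrophages were lowest of all, and the difference was not called (log2 fold change −1.01 ± 0.52, adjusted p = 0.191). Without that library, Casp8 was 2.70-fold higher in macrophages (adjusted p = 0.0552). In WT mice of the same age its mean was 98.2 ± 25.8 CPM in microglia (SD, n = 4), against 29.0 ± 2.11 in CReCOM, and 48.5 ± 14.3 CPM in macrophages (SD, n = 3), against 60.9 ± 37.7. The study reports, at the DNA level and from these RNA-seq data, that the deletion is present in microglia and not in brain macrophages. Which exons the loxP sites flank is not given in the sources used here, and a 3′-end read outside them would not check the deletion. Itgax, which encodes CD11c and whose promoter drives the Cre, was at 19.2, 0, 22.4 and 45.8 CPM in microglia and 108, 74.9 and 84.4 CPM in macrophages, with no overlap but no call (adjusted p = 0.212). The gate genes were as follows and are no finding. Ptprc (CD45) was at 443, 358, 374 and 371 CPM in microglia and 1492, 1401 and 1604 CPM in macrophages. Itgam (CD11b) and Fcgr1 (CD64), shared by both gates, were not called (adjusted p = 0.194 and 0.469).

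Markers of the labelled cell types were high where the labels place them. The summed CPM of 10 microglia markers was 18290.1, 20872, 20002 and 20629 in microglia and 1602, 1121 and 1148 in macrophages. The sum of 18 monocyte markers was 99.2, 83.4, 73.9 and 36.5 CPM in microglia and 9883, 13684 and 11442 CPM in macrophages. Markers of further cell types differed as well. Those of neutrophils summed to 3669, 11219 and 5790.1 CPM in macrophages, highest in mouse 3, against 126, 168, 108 and 247 CPM in microglia. For T and NK cells the sum was 861, 295 and 668 CPM in macrophages and 5.74 to 23.1 CPM in microglia, where 21 of 26 were at 0 in every library. Endothelial and pericyte markers ran the other way, at 1509 to 1795 CPM in microglia and 103 to 232 CPM in macrophages, as did those of astrocytes, at 440.3 to 653 and 76.1 to 92.1 CPM. The endothelial tight junction gene Cldn5 was at 77.8, 185, 128 and 229 CPM in microglia and at 0 in every macrophage library. Markers of border macrophages, the resident macrophages of the meninges and vessels, summed to 136 to 289.9 CPM in microglia and 263 to 326 CPM in macrophages. Of these 15 genes, 4 were at 0 in every macrophage library (Cd209f, Folr2, Lyve1 and Siglec1) and 3 in every microglia library (Cd209f, Colec12 and Lyve1). Of 7 tested, 1 was higher in macrophages and 0 in microglia. B cell markers summed to 375 to 541 CPM in microglia and 152 to 283 CPM in macrophages, and dendritic cell markers to 391 to 692 and 175 to 256 CPM. By single genes, 0 of 3 tested B cell markers were higher in microglia and 1 in macrophages. Of 5 tested dendritic cell markers, 1 and 2 were. Neuron markers summed to 168 to 266 CPM in microglia and 48.4 to 56.3 CPM in macrophages. Those of oligodendrocytes overlapped, at 240 to 320 and 259 to 434 CPM. The part of these cell types in the results was not tested, and fewer cells of a type and less RNA per cell cannot be told apart in sorted bulk samples.

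**Figure D1:**
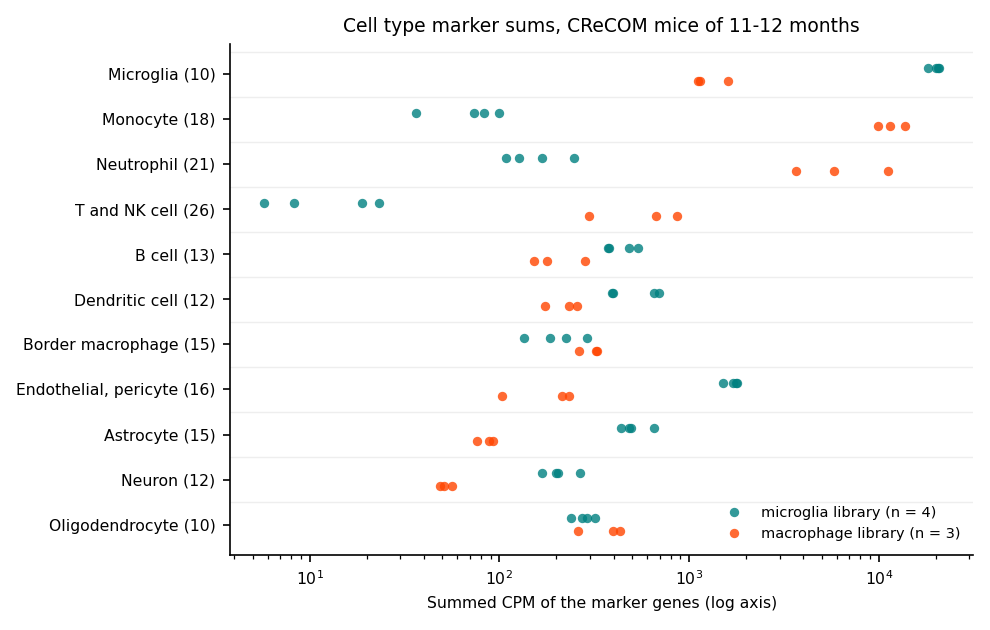
Summed CPM (x axis, log scale) of the marker genes of 11 cell types (rows, with the number of genes) in each library of 11–12-month-old CReCOM mice, 1 point per library. Microglia and monocyte markers separate the 4 microglia libraries from the 3 macrophage libraries, and neutrophil and T and NK cell markers are higher in all macrophage libraries.

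The 2 populations differed across much of the transcriptome. Of the 9058 genes tested, 1028 (11.3%) had higher levels in microglia, and 1060 (11.7%) did in macrophages. Counts of list members below are to be read beside these shares. The median log2 fold change of all genes was 0.05. Of the 2088 called genes, 1783 did not overlap between the groups, beside 13.9% and 15.5% of all tested genes whose libraries were all higher in microglia or in macrophages. Pearson's correlation of log2(CPM + 1) across genes was 0.414 to 0.493 between a microglia and a macrophage library (median 0.449 over 12 pairs) and had medians of 0.703 within microglia and 0.723 within macrophages. Macrophages of mouse 4 stood somewhat apart, at 0.696 and 0.723 with the other 2 macrophage libraries, which were at 0.778 with each other. With mouse as a replicate block on only the 3 mice that gave both cell types, 494 genes were higher in microglia and 668 in macrophages. Values that depend on 1 library are given with and without it below.

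Genes of microglial identity were higher in microglia as a group. Of 39 tested members, 35 were higher in microglia and none in macrophages, with a median log2 fold change of 3.77, beside 0.05 over all genes. P2ry12 (ENSMUSG00000036353), the ADP receptor through which microglia extend processes toward injury, was at 1519, 1007, 1255 and 897 CPM in microglia and 19.9, 23.9 and 83.5 CPM in macrophages. Every microglia library lay above every macrophage library, of which mouse 4 was highest, and the fold was 27.6 (log2 fold change 4.77 ± 0.72, adjusted p = 5.74e-05) and 55.6 without that library. P2ry13, a related ADP receptor, was at 2111, 2347, 2518 and 2506 CPM in microglia and 20.5, 42.1 and 23.1 CPM in macrophages. These groups were far apart, with a fold of 82.9 (adjusted p = 4.16e-07). Tmem119, a membrane protein used to mark microglia, was at 903, 1550.0, 1107 and 1224 CPM in microglia and 73.8, 27.3 and 40.8 CPM in macrophages, 25.3-fold higher in microglia (adjusted p = 2.22e-12). Cx3cr1, the fractalkine receptor, was abundant in both populations, at 5664, 9164, 8553 and 10013 CPM in microglia and 786, 654 and 719 CPM in macrophages. It was still 11.6-fold higher in microglia (log2 fold change 3.57 ± 0.23, adjusted p = 1.23e-13). Fcrls was 45.5-fold higher (adjusted p = 2.67e-04) and the lipid receptor Trem2 15.4-fold (adjusted p = 8.95e-05). Several members had 1 macrophage library that carried most of the reads in that group. Gpr34, a lysophosphatidylserine receptor, was at 586, 526, 702 and 477 CPM in microglia and 31.2, 5.83 and 0.715 CPM in macrophages. Mouse 1 was highest among the macrophages for it, and the fold of 45.5 (adjusted p = 6.04e-05) was 168 without that library. Siglech was at 20.9, 2.30 and 63.7 CPM in macrophages and 20.6-fold higher in microglia (adjusted p = 0.0150), or 55.3-fold without macrophages of mouse 4. Its call was lost with mouse as a replicate block (adjusted p = 0.195). Olfml3 was 20.8-fold higher (adjusted p = 7.22e-04), 63.2-fold without macrophages of mouse 1, and was not called with the block over the 3 shared mice (adjusted p = 0.256).

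Genes of monocytes were higher in macrophages by wide margins. Of 18 monocyte markers tested, 17 were higher in macrophages and 0 in microglia (edgeR), with a median log2 fold change of −10.42, or −8.71 when genes at 0 in microglia are set at the 3-count floor. Lyz2 (ENSMUSG00000069516), lysozyme M, was at 483, 279.8, 517 and 517 CPM in microglia and 15702, 15851 and 13658 CPM in macrophages. It was 33.5-fold higher in macrophages, with little spread (log2 fold change −5.04 ± 0.20, adjusted p = 1.46e-19). Ly6c2, which encodes the Ly6C antigen of classical monocytes, was at 0, 2.16, 0.185 and 0 CPM in microglia and 1138, 1939 and 1278 CPM in macrophages. Microglia were thus at or near 0 in 3 of 4 libraries, and no fold is given (adjusted p = 1.64e-09). Ccr2, the receptor that draws monocytes to CCL2, was at 0, 9.63, 1.30 and 6.99 CPM in microglia and 487, 506 and 489 CPM in macrophages. The macrophage libraries were nearly alike, with a fold of 110.3 (adjusted p = 0.00589) that became 174 without microglia of mouse 3. The call was lost with mouse as a replicate block (adjusted p = 0.106). Itga4, the integrin α4 chain by which leukocytes cross vessel walls, was at 0 in all microglia libraries and at 586, 648 and 349 CPM in macrophages, at least 855-fold higher (adjusted p = 6.54e-05). It belongs to 24 tested integrin and adhesion genes, of which 8 were higher in microglia and 7 in macrophages. Treml4 and Clec4e, receptors of monocytes, were at least 337-fold and 449.6-fold higher in macrophages (adjusted p = 4.52e-10 and 6.98e-12). These lower bounds set the microglia at 3 counts per library, a mean of 0.617 CPM. Among the Ms4a family of membrane proteins, 5 of 6 tested genes were higher in macrophages and 0 in microglia. Ms4a6c was 38.1-fold higher (adjusted p = 9.04e-06), or 81.4-fold without microglia of mouse 1. How reads shared by members of this family were counted is not stated, so each member is uncertain.

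**Figure D2:**
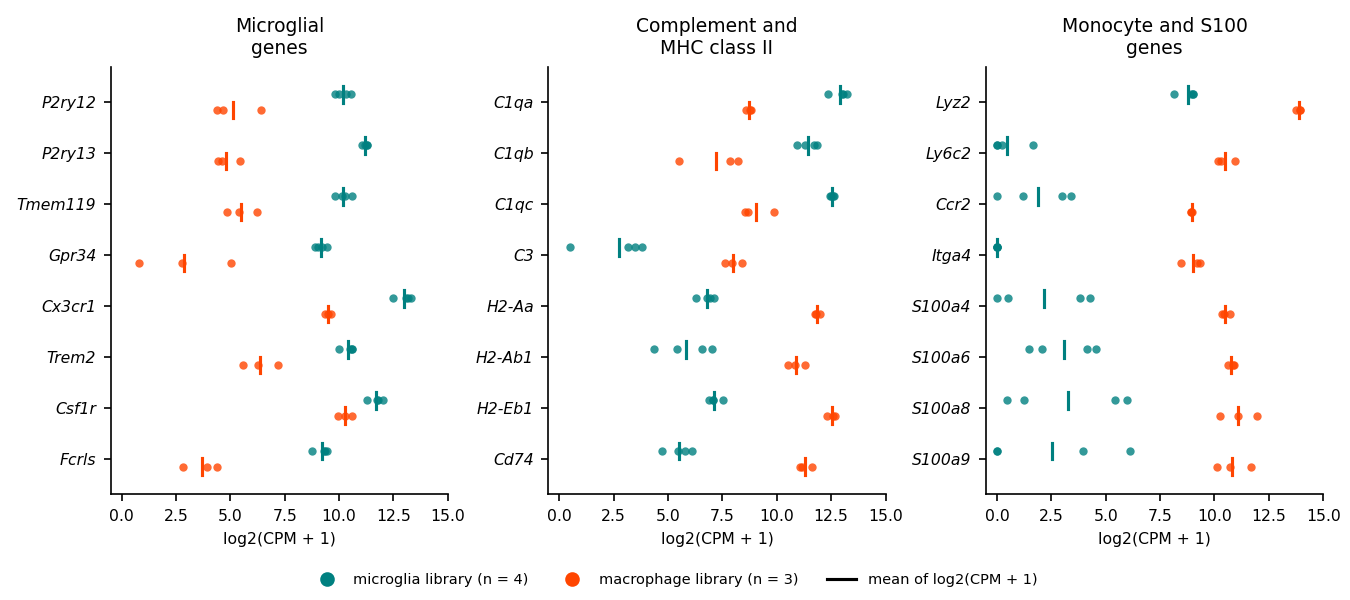
log2(CPM + 1) of 24 genes (rows) in each library of 11–12-month-old CReCOM mice, 1 point per library, with a vertical bar at the mean of each group. The 8 genes on the left and C1qa, C1qb and C1qc sit higher in all 4 microglia libraries, and C3, the MHC class II genes and the 8 genes on the right sit higher in all 3 macrophage libraries.

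Transcription factors divided along the same line with exceptions. Of 20 tested factors on a microglia list, 12 were higher in microglia and 2 in macrophages (Spi1 and Bhlhe40), and of 24 on a monocyte and macrophage list, 3 were higher in microglia (Cebpa, Klf4 and Id2) and 11 in macrophages. Sall1 (ENSMUSG00000031665), the zinc finger repressor that defines microglia, was at 399.7, 432, 455 and 650.2 CPM in microglia and at 0, 13.2 and 0 CPM in macrophages. Only macrophages of mouse 3 had reads for it, and the fold of 110.0 (adjusted p = 0.00218) was 72.4 without macrophages of mouse 1. Without macrophages of mouse 3, that group was at 0 and no fold is given. The call was lost in the block over the 3 shared mice (adjusted p = 0.191). Mef2c was 3.50-fold higher in microglia (adjusted p = 2.54e-06) and Irf8 1.70-fold (adjusted p = 0.0151). Spi1, which encodes PU.1, the factor both cell types need, ran the other way at 202, 179, 194 and 288 CPM in microglia and 671, 606 and 413 CPM in macrophages. It was 2.61-fold higher in macrophages without overlap (adjusted p = 4.23e-04). Cebpa, placed on the monocyte list, was 7.26-fold higher in microglia (adjusted p = 4.53e-11). Rara, a retinoic acid receptor, was at 0 in all microglia and 148, 203 and 254 CPM in macrophages, at least 327-fold higher (adjusted p = 4.67e-08).

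Of 6 tested genes of colony-stimulating factors and their receptors, 2 were higher in microglia (Csf1r and Csf1) and 1 in macrophages (Csf2rb). Csf1r, the receptor of CSF1 and IL-34, was at 2456, 3392, 3506 and 4166 CPM in microglia and 1526, 1219 and 985 CPM in macrophages. Both populations thus had it in quantity, and it was 2.72-fold higher in microglia (adjusted p = 2.68e-06). Its ligand Csf1 was 29.6-fold higher in microglia (adjusted p = 5.19e-07), or 53.9-fold without macrophages of mouse 1. Csf2rb, the shared chain of the GM-CSF, IL-3 and IL-5 receptors, was 2.37-fold higher in macrophages (adjusted p = 0.00181). In the TGF-β pathway, 9 of 20 tested members were higher in microglia and none in macrophages, with a median log2 fold change of 1.10. They included the receptor Tgfbr1 (4.29-fold, adjusted p = 3.15e-05), the integrin chain Itgb5 (7.09-fold, adjusted p = 5.68e-06), and Pmepa1, a feedback inhibitor (11.6-fold, adjusted p = 7.68e-04). The signal transducer Smad3 was at 50.8, 35.2, 87.8 and 55.0 CPM in microglia and 52.4, 37.1 and 1.19 CPM in macrophages and was not called (adjusted p = 0.349). Of 10 tested purinergic genes, 6 were higher in microglia and 1, Adora2a, in macrophages. Entpd1, the ectoenzyme CD39 that degrades ATP, was 6.72-fold higher in microglia (adjusted p = 0.00110), or 11.0-fold without macrophages of mouse 1, and the nucleoside transporter Slc29a3 was 7.38-fold higher (adjusted p = 1.93e-07).

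Complement genes were divided between the populations, 6 higher in microglia and 4 in macrophages of 16 tested. The 3 chains of C1q, which starts the classical pathway and tags synapses and debris, were all higher in microglia. C1qa (ENSMUSG00000036887) was at 5248, 9591, 8249.7 and 8516 CPM in microglia and 444, 435 and 378 CPM in macrophages, 18.9-fold higher (log2 fold change 4.28 ± 0.31, adjusted p = 2.51e-11). C1qb was 15.1-fold and C1qc 10.5-fold higher (adjusted p = 8.19e-07 and 3.51e-08). C3ar1, the receptor of the C3a fragment, was 4.19-fold higher in microglia (adjusted p = 0.0272). The central component C3 was at 10.3, 0.393, 13.2 and 7.86 CPM in microglia and 199, 336 and 248 CPM in macrophages. It was 33.0-fold higher in macrophages (adjusted p = 0.0247), a call lost with mouse as a replicate block (adjusted p = 0.119). Cfb, factor B of the alternative pathway, was at 0, 1.97, 0 and 0 CPM in microglia and 89.3, 84.6 and 61.0 CPM in macrophages (adjusted p = 0.0196). Cfp, properdin of the same pathway, was at 81.0, 92.7 and 36.7 CPM in macrophages and had 1 count in all microglia libraries together (adjusted p = 8.12e-05).

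Receptors of phagocytosis were divided, 7 higher in microglia and 6 in macrophages of 24 tested. Mertk, a receptor for apoptotic cells, was at 616, 811, 1062 and 1227 CPM in microglia and 51.9, 6.91 and 0.238 CPM in macrophages. Mouse 1 again held most of the macrophage reads, so that the fold of 47.2 (adjusted p = 6.79e-04) became 249.9 without it, and the block over the 3 shared mice gave an adjusted p of 0.280. Its bridging ligand Pros1 was 4.41-fold higher in microglia (adjusted p = 4.48e-04), or 8.85-fold without macrophages of mouse 4, and the Fc receptor Fcgr3 was 2.90-fold higher (adjusted p = 3.76e-05). In macrophages the β-glucan receptor Clec7a was 6.78-fold higher (adjusted p = 0.0166), the inhibitory receptor Cd300a 6.04-fold (adjusted p = 8.79e-05) and the Fc receptor γ chain Fcer1g 1.98-fold (adjusted p = 4.81e-04). Cd36, a scavenger receptor for oxidized lipids, was at 0, 0, 2.04 and 0 CPM in microglia and 224, 133 and 187 CPM in macrophages (adjusted p = 0.00194).

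Genes of MHC class II, which present peptides to CD4 T cells, were higher in macrophages. Of 13 tested members of the class II pathway, 6 were higher in macrophages and 1, the costimulator Cd86, in microglia, with a median log2 fold change of −4.52. The call of Cd86 was lost with mouse as a replicate block, without macrophages of mouse 3 or 4 and without microglia of mouse 4. H2-Aa (ENSMUSG00000036594), the class II α chain, was at 136, 121, 111 and 77.9 CPM in microglia and 3629.9, 4062 and 3491 CPM in macrophages. Every macrophage library was far above every microglia library, and the fold was 33.5 (log2 fold change −5.04 ± 0.35, adjusted p = 6.62e-12). The β chains H2-Ab1 and H2-Eb1 were 27.2-fold and 42.2-fold higher (adjusted p = 1.25e-09 and 2.92e-10). Cd74, the invariant chain that guards the peptide groove, was at 42.6, 54.5, 25.2 and 67.7 CPM in microglia and 3188, 2120.1 and 2257 CPM in macrophages, 53.1-fold higher (adjusted p = 6.89e-05). Ciita, the master activator of this gene set, was at 0 in all microglia libraries and 38.0, 18.6 and 67.2 CPM in macrophages, at least 66.9-fold higher (adjusted p = 0.00394). Ifi30, a lysosomal reductase that prepares antigens, was 3.17-fold higher (adjusted p = 2.72e-05). In the class I pathway, 13 of 21 tested genes were higher in macrophages and 1, Pdia3, in microglia, with a median of −1.67. B2m, the light chain of class I, was 2.53-fold higher in macrophages (adjusted p = 5.83e-07), Psmb8, a subunit of the immunoproteasome, 5.16-fold (adjusted p = 8.78e-05) and H2-T22 16.9-fold (adjusted p = 1.80e-05), or 28.7-fold without microglia of mouse 4. Genes of the H2 family are close copies, and how reads shared between them were counted is not stated.

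Class II promoters are known to carry a Y box, a CCAAT element bound by NF-Y, and the reference promoters of 2 of these genes are shown for it. Sequences are from RefSeq (GRCm38.p6), on the strand of the gene, with the letters CTGATTGG in capitals. The H2-Aa stretch lies at chr17:34287841-34287900 on the − strand, with the motif 51 bases before the start, and that of H2-Eb1 at chr17:34305779-34305838 on the + strand, 62 bases before it.
H2-Aa: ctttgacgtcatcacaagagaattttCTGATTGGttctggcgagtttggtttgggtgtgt
H2-Eb1: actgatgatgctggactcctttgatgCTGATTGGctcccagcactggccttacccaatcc
Searched on both strands in the 300 bases around the start (250 before and 50 after), CTGATTGG was found in 3 of 9 genes of the class II list (33.3%), in 7 of 19 of the class I list (36.8%) and in 4.70% of all 27025 genes with a promoter in the table. It was in 5.75% of the genes higher in microglia and 5.55% of those higher in macrophages, beside 6.14% of all tested genes with a promoter. Within the class II list it was in 2 of 3 genes called in macrophages (66.7%) and in 1 of 5 tested and not called there (20%). A match is a description of the letters and not of binding.

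Genes of the type I interferon response were higher in macrophages. Of 47 tested, 25 were higher in macrophages and 1, Ifi27, in microglia, with a median log2 fold change of −2.73. Isg15 (ENSMUSG00000035692), the ubiquitin-like modifier, was at 30.1, 2.75, 14.6 and 23.6 CPM in microglia and 271, 226 and 492 CPM in macrophages. The lowest macrophage library was well above the highest microglia library, and the fold was 18.6 (log2 fold change −4.22 ± 0.67, adjusted p = 1.62e-05). Samhd1, which depletes nucleotides and restricts viruses, was at 68.0, 51.1, 67.8 and 103 CPM in microglia and 1569, 2124 and 1664 CPM in macrophages, 24.7-fold higher (adjusted p = 1.28e-09). Slfn5 was 8.34-fold higher in macrophages (adjusted p = 3.98e-06) and the nuclear body gene Sp100 7.83-fold (adjusted p = 2.97e-05). Irf7, the factor that amplifies type I interferon, was at 15.6, 37.4, 55.6 and 0.218 CPM in microglia and 208, 310.0 and 323 CPM in macrophages. It did not overlap between groups but was not called (adjusted p = 0.111), whereas the fit with mouse as a replicate block called it (adjusted p = 0.00626). Ifitm3, which blocks viral entry and has close copies in its family, was 34.8-fold higher in macrophages (adjusted p = 0.00146). On a list of interferon-γ response genes, 3 of 19 tested were higher in macrophages (Gbp2, Ciita and Nod1) and 0 in microglia, a share of the list near that of all genes. Gbp2, a guanylate-binding protein, was 20.0-fold higher (adjusted p = 0.0314), or 31.9-fold without microglia of mouse 3, with an adjusted p of 0.110 in the block over the 3 shared mice. Nod1, a sensor of bacterial peptidoglycan, was 7.82-fold higher (adjusted p = 6.13e-04).

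Interferon-stimulated genes are known to carry interferon-stimulated response elements, and the promoters of 3 genes higher in macrophages are shown with a core of that element in capitals, 2 copies of GAAA with any 2 bases between them, again from RefSeq (GRCm38.p6) on the strand of the gene. The stretch of Isg15 is chr4:156200850-156200909 (− strand, 66 bases before the start), that of Slfn5 chr11:82951922-82951981 (+ strand, 155 bases) and that of B2m chr2:122147523-122147582 (+ strand, 139 bases). Isg15 had 3 matches, of which the one nearest the start is in capitals, and Slfn5 and B2m had 1 each. That of Slfn5 is followed by a run of A. A match again describes the letters and not binding.
Isg15: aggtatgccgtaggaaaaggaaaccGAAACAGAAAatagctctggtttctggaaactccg
Slfn5: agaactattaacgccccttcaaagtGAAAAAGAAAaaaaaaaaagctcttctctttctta
B2m: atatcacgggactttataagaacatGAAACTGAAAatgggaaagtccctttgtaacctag
Among the genes with a promoter in the table, this pattern, searched on both strands of the same 300 bases, was in 24 of 43 of the type I interferon list (55.8%), 5 of 19 of the class I list (26.3%), 0 of 9 of the class II list and 3.99% of all 27025. It was in 8.0% of the genes higher in macrophages (62 of 775) and 3.01% of those higher in microglia (23 of 765). Of all tested genes with a promoter, 4.1% had it. Within the interferon list it was in 12 of 18 genes called in macrophages (66.7%) and in 7 of 17 that were tested and not called (41.2%).

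Genes of Toll-like receptor and IL-1 signaling were divided, with 4 higher in microglia (Il1a, Tnf, Nfkbia and Tlr12) and 5 in macrophages of 34 tested, shares close to those of all genes. Il1b and Il1a, which encode related cytokines, differed in opposite directions. Il1b was at 211, 177, 576 and 399.5 CPM in microglia and 1359.9, 1742 and 1882 CPM in macrophages, 4.87-fold higher in macrophages (adjusted p = 5.82e-04). Il1a was at 387, 277, 274 and 160.2 CPM in microglia and 37.1, 3.84 and 0.477 CPM in macrophages, 19.9-fold higher in microglia (adjusted p = 0.0229), or 119.6-fold without macrophages of mouse 1. Tnf and the NF-κB inhibitor Nfkbia were 6.32-fold and 3.78-fold higher in microglia (adjusted p = 1.25e-05 and 8.17e-10), and the lipopolysaccharide co-receptor Cd14 was 4.38-fold higher in macrophages (adjusted p = 2.29e-06). Tlr4 was at 49.5, 2.36, 10.9 and 33.4 CPM in microglia and 55.4, 50.3 and 30.8 CPM in macrophages, and Tlr7, a sensor of single-stranded RNA, at 61.5, 40.7, 111 and 55.5 and 65.1, 90.2 and 97.3 CPM. Both overlapped between groups and were not called (adjusted p = 0.680 and 0.722).

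Around caspase-8 itself, which starts death receptor apoptosis and restrains necroptosis, 4 of 24 tested genes were higher in macrophages and 0 in microglia (edgeR, median −0.59), a share near the 11.7% of all genes higher in macrophages. These were the TNF receptors Tnfrsf1a (2.27-fold, adjusted p = 0.00155) and Tnfrsf1b (4.66-fold, adjusted p = 2.12e-06), with Mcl1 and Bak1 of the BCL2 family. Mcl1 was 1.56-fold higher (adjusted p = 0.0117) and lost its call with RLE factors, with DESeq2, with the block over the 3 shared mice and without macrophages of mouse 4. That block called 2 of the 4. The necroptosis kinase Ripk3, at 0, 0, 9.26 and 0 CPM in microglia and 23.4, 2.92 and 10.3 CPM in macrophages, was too low to be tested, as was its substrate Mlkl, which was at 0 in all microglia and 0, 18.0 and 57.5 CPM in macrophages.

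Chemokine receptors also divided the populations. Of 17 tested, 4 were higher in microglia and 9 in macrophages, with a median of −6.73, or −5.11 with genes at 0 set at the 3-count floor. Ccr1, a receptor of CCL3 and CCL5, was at 0 in all microglia libraries and 59.4, 79.8 and 67.0 CPM in macrophages, at least 111-fold higher (adjusted p = 1.13e-04). The chemerin receptor Cmklr1 was 4.54-fold higher in microglia (adjusted p = 0.00164). Of 15 tested ligands, 3 were higher in microglia (Ccl3, Ccl4 and Cxcl13) and 4 in macrophages (Ccl5, Ccl6, Ccl9 and Cxcl2). Without macrophages of mouse 1, only 1 ligand was called in microglia. Ccl3 was 5.65-fold higher in microglia (adjusted p = 6.32e-08). Ccl6, Ccl9 and the neutrophil attractant Cxcl2 were 5.12-fold, 5.80-fold and 5.40-fold higher in macrophages (adjusted p = 8.02e-07, 0.00257 and 3.69e-04).

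Genes known to rise in disease-associated microglia were divided between the populations: 8 were higher in microglia and 9 in macrophages of 28 tested, with a median of −0.30. Those higher in microglia included genes of the lysosome. The tetraspanin Cd63 was at 1173, 1325, 976 and 1247 CPM in microglia and 97.4, 115 and 145 CPM in macrophages, 9.89-fold higher (adjusted p = 1.77e-09). Timp2, a metalloproteinase inhibitor, was 11.0-fold and Ctsd, cathepsin D, 7.47-fold higher in microglia (adjusted p = 1.25e-09 and 1.28e-09). On the other side, Apoe was at 481, 346, 264 and 457 CPM in microglia and 1443, 774 and 1159.7 CPM in macrophages, 2.91-fold higher (adjusted p = 1.56e-04). Lgals3, galectin-3, was at 0, 0, 0.185 and 7.86 CPM in microglia and 587, 683 and 669 CPM in macrophages (adjusted p = 0.00209), and Spp1, osteopontin, at 0, 0.393, 1.11 and 0 and 133, 42.7 and 44.3 CPM (adjusted p = 0.0133). Lpl, at 101, 11.4, 17.6 and 25.8 and 254, 115 and 27.4 CPM, and the cystatin Cst7, at 7.58, 1.38, 5.74 and 5.02 and 9.74, 9.67 and 0.954 CPM, were not called (adjusted p = 0.113 and 0.876), and Lpl was called without microglia of mouse 1 (adjusted p = 0.0146) or macrophages of mouse 4 (adjusted p = 0.0559). The study defines a gene signature for microglia of lupus models, of which only the 16 genes named in its text were used here. Of these, 3 were higher in microglia (Vcam1, Meg3 and Pkd2) and 6 in macrophages. The study chose that list in part on these samples, so it is no independent evidence. Lysosomal genes leaned to microglia, 15 of 33 tested, with Ctsc and Gm2a higher in macrophages and a median of 0.63. Cathepsin S (Ctss) was at 7944, 7769, 7776 and 8076 CPM in microglia and 3973, 3081 and 2918 CPM in macrophages, 2.37-fold higher with little spread (adjusted p = 7.03e-09). Of 24 tested lipid and sterol genes, 2 were higher in microglia (Abca1 and Mgll), or 4 without macrophages of mouse 1, and 6 in macrophages. The shares of all genes were 11.3% and 11.7%. The lipid droplet protein gene Plin2 was 10.3-fold higher in macrophages (adjusted p = 1.03e-04).

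S100 genes, small calcium-binding proteins, and genes of the motile cytoskeleton were higher in macrophages. Of 10 tested S100 genes, 7 were higher in macrophages (4 in the block over the 3 shared mice) and 1, S100a16, in microglia, whose call was lost with the replicate block and without any 1 of 5 of the 7 libraries. S100a4 was at 12.9, 18.7, 0 and 0.437 CPM in microglia and 1379, 1661 and 1281 CPM in macrophages. Microglia fell into 2 mice with over 10 CPM and 2 below 1, and the fold of 179.8 (adjusted p = 0.00103) was 331 without mouse 3. S100a6 was 159-fold higher (adjusted p = 2.35e-05), or 239-fold without microglia of mouse 4. S100a8, with S100a9 a subunit of calprotectin and abundant in neutrophils, was at 1.34, 42.1, 0.371 and 62.0 CPM in microglia and 1233, 4014 and 2139 CPM in macrophages. Its fold was 93.1 (adjusted p = 0.00868), or 162 without microglia of mouse 5. S100a9 was 96.2-fold higher (adjusted p = 0.00726), or 395-fold without that library. In macrophages S100a8 and S100a9 were highest in mouse 3, as was the neutrophil marker sum, whose part in their values was not tested. In the block over the 3 shared mice S100a4, S100a8 and S100a9 were not called (adjusted p = 0.202, 0.142 and 0.149), nor was S100a9 in a fit of the 7 libraries alone (adjusted p = 0.121). Of 23 tested cytoskeletal genes, 19 were higher in macrophages and 1, Marcks, in microglia, with a median of −2.85. Filamin A (Flna) was at 70.9, 118, 104 and 140.4 CPM in microglia and 1376, 1270.1 and 1099 CPM in macrophages, 11.5-fold higher (adjusted p = 2.37e-09). The actin regulator Coro1a and the myosin Myo1g were 7.29-fold and 6.80-fold higher (adjusted p = 2.02e-08 and 4.15e-07). Marcks, a membrane-bound actin cross-linker, was 3.14-fold higher in microglia (adjusted p = 3.44e-05).

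Glycolytic genes, immediate early genes and cell cycle genes completed the comparison. Of 17 tested glycolytic genes, 3 were higher in microglia (Hk2, Slc2a5 and Pdk1) and 5 in macrophages. Hexokinase 2 (Hk2) was 3.29-fold higher in microglia (adjusted p = 1.56e-05). Pyruvate kinase (Pkm), lactate dehydrogenase (Ldha) and the lactate exporter Slc16a3 were 3.52-fold, 3.54-fold and 6.64-fold higher in macrophages (adjusted p = 1.00e-04, 0.00589 and 1.09e-05). Immediate early genes, which are known to respond within minutes to many stimuli and to tissue dissociation, were higher in microglia in 19 of 26 cases and in macrophages in 2 (Fosl2 and Dusp2), with a median of 1.33. Egr1 was at 8027, 4479.9, 5065 and 5674 CPM in microglia and 422, 309 and 365 CPM in macrophages, 15.9-fold higher (adjusted p = 1.54e-12). Jun and Ier5 were 5.43-fold and 7.54-fold higher (adjusted p = 3.15e-13 and 4.11e-13). Of 17 tested genes of proliferation, 6 were higher in macrophages and 0 in microglia (edgeR), with a median of −2.98, or −2.19 with genes at 0 set at the 3-count floor. Mki67, the antigen of cycling cells, was at 0, 0.197, 0 and 0 CPM in microglia and 26.8, 113 and 123 CPM in macrophages, lowest in mouse 1 (adjusted p = 1.76e-04). Top2a, a topoisomerase of dividing cells, was 10.8-fold higher in macrophages (adjusted p = 0.00555). Its call was lost with mouse as a replicate block (adjusted p = 0.172), with that block over the 3 shared mice (adjusted p = 0.484) and in a fit of the 7 libraries alone (adjusted p = 0.116).

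**Figure D3:**
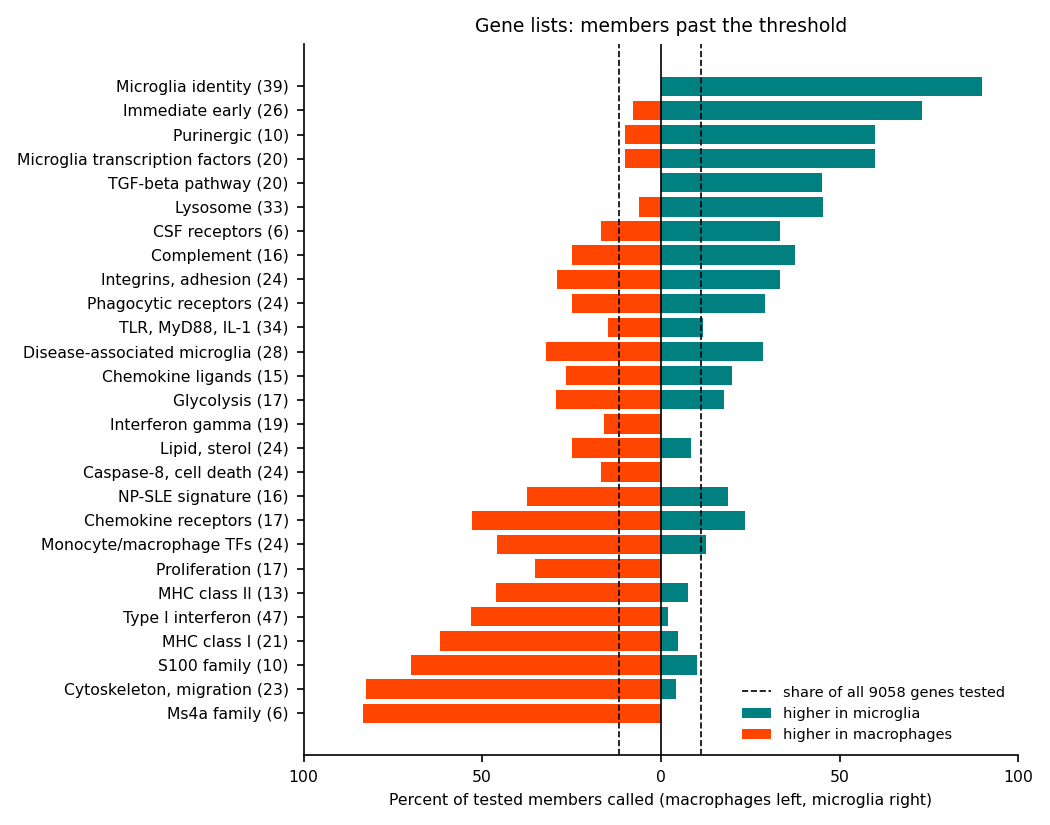
Percent of the tested members of 27 gene lists (rows, with the number tested) called higher in microglia (right) or macrophages (left). Dashed lines mark the shares of all 9058 genes, 11.3% and 11.7%. Microglia identity reaches furthest to the right and the Ms4a and cytoskeletal lists furthest to the left.

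The largest folds among called genes without overlap, and with more than the 3-count floor in the lower group, included genes outside the lists above. In microglia Ctsf, cathepsin F, was at 149, 112, 214 and 111 CPM in microglia and 2.74, 1.38 and 0 CPM in macrophages, with a fold of 107 (adjusted p = 2.15e-05) that became 189 without macrophages of mouse 1. The tight junction scaffold Tjp1 had a fold of 93.3 (adjusted p = 0.00733), or 180.2 without macrophages of mouse 3, and Lrrc3 a fold of 79.2 (adjusted p = 0.00613), or 208 without those of mouse 1. In macrophages, the matrix protein gene Emilin2 was at 0, 0.197, 4.45 and 0.218 CPM in microglia and 398, 220.1 and 349.8 CPM in macrophages (adjusted p = 0.00182). Heparanase (Hpse) was at 0, 0, 3.52 and 0 and 201, 224 and 259.9 CPM (adjusted p = 0.00446) and Cytip, a regulator of leukocyte adhesion, at 0, 0, 0 and 15.3 and 670.1, 844 and 825 CPM (adjusted p = 0.00879). Each of the latter had reads in 1 microglia library and 0 in the other 3, or nearly so for Emilin2, and no fold is given.

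Whether the difference between the cell types depended on genotype was tested as an interaction, the difference in CReCOM minus that in WT mice of the same age. These comparisons share the CReCOM libraries. Of 9058 genes, 7 (0.0773%) had a larger value in CReCOM and 11 (0.121%) a smaller one, and 808 had an unadjusted p under 0.05. The count of 7 became 14 to 17 without CReCOM microglia of mouse 1, CReCOM macrophages of mouse 3 or WT macrophages of replicate 7, and 2 to 4 without CReCOM microglia of mouse 3 or 4 or WT microglia of replicate 2, 3 or 5. The count of 11 became 38 without WT macrophages of replicate 4 and 46 without CReCOM microglia of mouse 1, and 4 to 7 without CReCOM microglia of mouse 3 or 4 or WT microglia of replicate 2, 3 or 5. With mouse as a replicate block, 0 and 3 genes were called, and of 17 of the 18 followed singly, only 5 kept their call in every fit that left out 1 library. C1qa was among them. In CReCOM mice it was at 444, 435 and 378 CPM in macrophages, against 42.2, 69.8 and 33.5 CPM in WT macrophages. Microglia had 5248, 9591, 8249.7 and 8516 CPM in CReCOM and 5568, 6277, 5905 and 4564 CPM in WT mice. The macrophages of the genotypes did not overlap and the microglia did, and the lead of microglia over macrophages was smaller in CReCOM (difference −2.61 ± 0.37 on the log2 scale, adjusted p = 4.60e-04). Of these 17 genes it alone was also called in the blocked fit. The summed microglia markers were 1121 to 1602 CPM in CReCOM and 803 to 869 CPM in WT macrophages, and the summed neutrophil markers 3669 to 11219 and 12795 to 31475 CPM, and their part in this result was not tested.

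Cst3, cystatin C, and H2-Aa also had signed differences below 0. Cst3 was at 8801, 6859, 8678 and 5158 CPM in CReCOM microglia and 10912, 16071, 15116 and 13966 CPM in WT microglia, and in macrophages at 2716, 2287 and 1838 and 1553, 1823 and 1240.0 CPM. CReCOM microglia were all lower and CReCOM macrophages all higher than WT (difference −1.50 ± 0.25, adjusted p = 0.00332), and the blocked fit did not call it (adjusted p = 0.271). H2-Aa was at 136, 121, 111 and 77.9 CPM in CReCOM and 182, 295, 287 and 394 CPM in WT microglia, and at 3629.9, 4062 and 3491 and 1233, 1390.4 and 2062 CPM in macrophages. No group overlapped with its counterpart, so that the lead of macrophages over microglia was wider in CReCOM (difference −2.66 ± 0.45, adjusted p = 0.00377, with the replicate block 0.164). Rab3il1, an activator of a vesicle GTPase, was at 32.7, 13.2 and 42.7 CPM in CReCOM and 0, 0.239 and 0 CPM in WT macrophages, the latter at 1 count in all (difference −7.82 ± 1.04, adjusted p = 8.56e-05). Without WT macrophages of replicate 4, which held that count, the difference was −9.78, and the blocked fit did not call it (adjusted p = 0.340). Prkab1, a subunit of AMP-activated kinase, was nearly absent from CReCOM macrophages of 11–12 months. It was at 0.761, 0.307 and 0.477 CPM in CReCOM and 67.3, 29.9 and 36.8 CPM in WT macrophages (difference 5.82 ± 1.16, adjusted p = 0.0238), and was called neither with the replicate block (adjusted p = 0.911) nor by limma (adjusted p = 0.106). At 5–6 months, macrophages were at 82.4, 12.5 and 10.3 CPM in CReCOM and at 2.47, 15.1 and 0.675 CPM in WT mice. Among the gene lists, this interaction called 2 of 39 microglia identity genes (P2ry12 and Cst3) and 1 of 13 class II genes (H2-Aa). It called 0 of 47 type I interferon genes. Further calls were 1 each of 10 microglia markers, 10 purinergic, 16 complement, 34 Toll-like receptor and IL-1, 33 lysosomal and 26 immediate early genes. Of all genes, 0.0773% and 0.121% were called. P2ry12 lost its call with the replicate block, in the 14 libraries of 11–12 months alone (adjusted p = 0.207) and without CReCOM macrophages of mouse 4 (adjusted p = 0.139), among other libraries. The summed CPM of the class II list was 13812 to 17543 in CReCOM and 4861 to 8103 in WT macrophages, without overlap. That of the type I interferon list was 14118 to 14626 in CReCOM and 7138 to 10240 in WT macrophages. In microglia the interferon sum was 2243 to 2622 in CReCOM and 1230 to 1723 in WT mice. Neither cell type overlapped between genotypes for this sum.

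**Figure D4:**
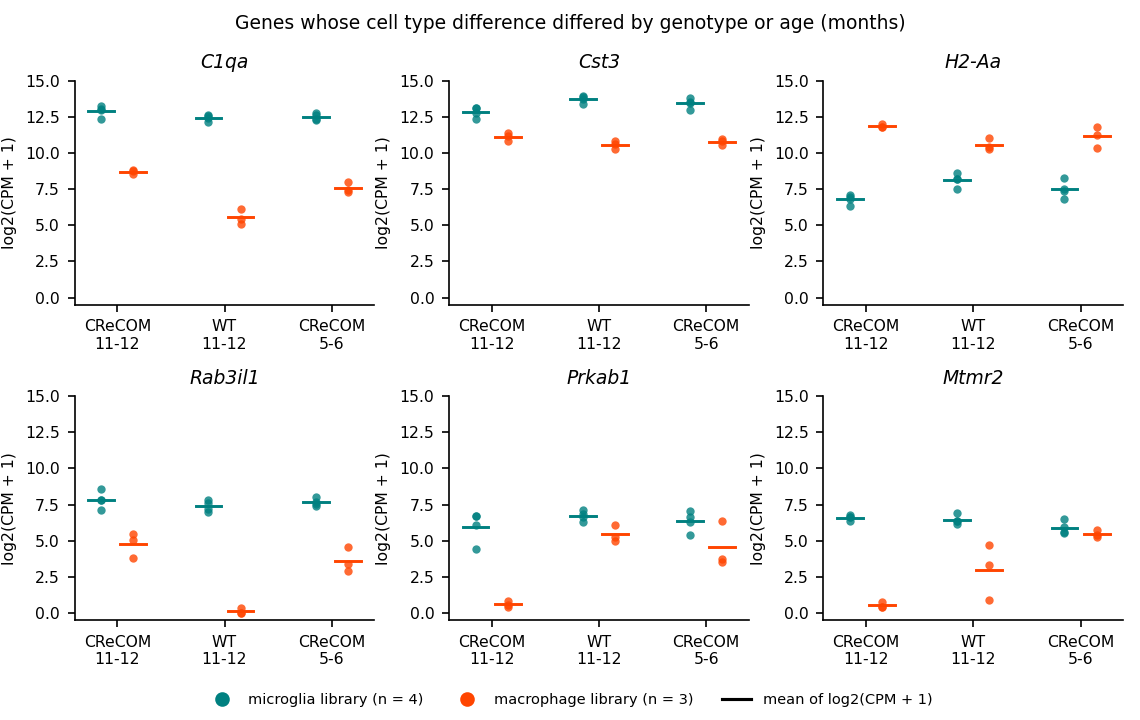
log2(CPM + 1) of 6 genes (panels) by genotype and age, with 1 point per library and a bar at the mean, microglia on the left and macrophages on the right of each pair. C1qa and Rab3il1 are higher in macrophages of CReCOM than of WT mice at 11–12 months, whereas Prkab1 and Mtmr2 are near 0 in CReCOM macrophages at 11–12 months.

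Whether the difference depended on age was tested in the same way against CReCOM mice of 5–6 months. Of 9058 genes, 3 (0.0331%) had a larger value at 11–12 months and 0 (0%) a smaller one by edgeR, with 518 genes at an unadjusted p under 0.05, while DESeq2 called 67 and 59. Without macrophages of mouse 1 at 11–12 months the counts were 10 and 4, and no other single library moved the count of 3 by more. Mtmr2, a phosphatase of endosomal phosphoinositides, was at 0.304, 0.307 and 0.715 CPM in macrophages at 11–12 months and 37.5, 40.4 and 52.1 CPM at 5–6 months. Microglia were at 96.7, 98.5, 108 and 79.9 and 47.9, 46.0, 61.8 and 87.7 CPM. The macrophage libraries of the 2 ages were far apart (difference 7.27 ± 1.04, adjusted p = 3.66e-04), and the call held with each library left out and with the block. WT macrophages of 11–12 months were at 8.98, 25.1 and 0.880 CPM, between these levels. Efnb1, an ephrin ligand, was at 0, 0.307 and 0 and 11.8, 6.11 and 56.4 CPM in macrophages of the older and the younger mice (difference 7.41 ± 1.34, adjusted p = 0.0154), and was called neither with the replicate block (adjusted p = 0.526) nor by limma (adjusted p = 0.775). Its value was 9.92 without macrophages of mouse 3, which held its only reads at 11–12 months, and 5.94 without macrophages of replicate 5 at 5–6 months. Prkab1 had a difference of 5.78 ± 1.16 (adjusted p = 0.0524), lost without any 1 of 7 libraries, with the replicate block (adjusted p = 0.656) and by limma (adjusted p = 0.697). It was 4.16 without macrophages of replicate 3 at 5–6 months.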

How the data were processed

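RNA of sorted cells was made into QuantSeq 3′ libraries. The authors demultiplexed reads with bcl2fastq, used bbduk for trimming and STAR for alignment to GRCm38, and obtained gene counts from HTSeq. The deposited counts are raw, and the CPM deposited by the authors are those counts scaled to 1 common library total, which was checked against the counts (largest deviation 0.0101%). Tool versions, annotation release, strand setting and the handling of multimapped reads are not given in the sources used here.

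The count tables were joined on the gene ID (49669 genes, 2 not joined). Genes were kept by the study's rule, log2 of the largest group mean CPM plus 1 over 4 in microglia or over 5 in macrophages, leaving 9058. All 28 libraries entered 1 fit with TMM factors in edgeR 4.0.16 (R 4.3.3; quasi-likelihood, robust, 20 residual degrees of freedom), with a mean for each of 8 groups, and p-values were adjusted by Benjamini-Hochberg. The common biological coefficient of variation was 0.941. The study names DESeq2, run here as an alternative (1.42.0) with limma (3.58.1), other scalings, filters, thresholds and sample sets, a replicate block and each library left out. The steps were tested on simulated counts, with 100 genes changed 16-fold and 100 changed 4-fold in 1 group. The comparison of cell types called 49 and 20 of them, the interaction with genotype 28 and 8, and that with age 33 and 8. Of the unchanged genes, 6, 3 and 5 were called. A gene that was not called may thus still differ. Every other simulated gene had the same mean level in all groups, whereas 11.3% and 11.7% of genes were called between the cell types in the data. The simulated calls therefore do not measure the share of true differences found here. Groups were taken from sample titles and library names, from which the age field of some samples differs.

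The replicate numbers pair samples because the library names give mice 1, 3 and 4 for both cell types. Deviations from the group means of the same mouse correlated at 0.0398, 0.0172 and 0.00193 (mice 1, 3 and 4). Pairs of different mice were at −0.0337 to 0.0152, so that mice 1 and 3 lay above that range and mouse 4 within it. Libraries of 1 group differed beyond counting noise (lowest chi-square per gene 72.3).

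The members, the 38 gene lists (733 of 740 symbols matched) and the rule for named genes were chosen with earlier results of these data known. The rule takes key list genes, the strongest further members of each list, up to 10 of the largest non-overlapping folds each way, genes called in an interaction and genes the study names. Of the 250 it took, those described were chosen with their values known. Ptprc, Cept1 and genes named only to say which members make up a small count lie outside it. Some genes that the rule took are not reported here.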

Additional observations from a re-analysis of the deposited data

Results flagged for a closer look

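Among 125 genes and 38 list sums, a microglia library stood far from the other 3 by Dixon's ratio of gap to range (95% critical value) for 16 genes and 1 sum, where chance gives about 1 in 20. The ratio was 1.00 for Cd36, Cfb, Cfp, Cytip, Hpse, Mki67 and Ripk3, genes at 0 in 3 of 4 microglia libraries, and 0.976, 0.951 and 0.914 for Lgals3, Emilin2 and Ly6c2, which were at or near 0 in 3. Among expressed genes, mouse 1 was lowest for Csf2rb (0.882) and Trem2 (0.853) and highest for Itgam (0.904) and Lpl (0.839). Mouse 3 was lowest for Mef2c (0.894) and Lyz2 (0.855), and mouse 5 was lowest for the sum of integrin and adhesion genes (0.961).

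The difference between cell types differed from that in WT mice, by the interaction test, for 18 genes. Among those with a larger value in CReCOM, the signed log2 difference was 7.14 for Inpp4b, 5.93 for Efnb1, 5.82 for Prkab1, 4.79 for Mtmr2, 2.38 for Camk2n1 and 2.18 for Grina. Those with a smaller value were −7.82 for Rab3il1, −4.32 for P2ry12, −4.29 for Id3, −2.82 for Cept1, −2.66 for H2-Aa, −2.61 for C1qa, −2.46 for Lmo2, −2.41 for Rassf2, −1.88 for Cd14, −1.50 for Cst3 and −1.13 for Rhob. Against 5–6 months the differences were 7.41 for Efnb1, 7.27 for Mtmr2 and 5.78 for Prkab1. Of the genes named here, only C1qa, Cst3, H2-Aa, Prkab1 and Rab3il1 against WT, and Efnb1 and Mtmr2 against 5–6 months, were called with each library left out.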

How the results depend on the processing

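Of 116 genes described with their values and called between the cell types, 102 kept their call under every alternative run, 115 with each library left out (all but Mcl1) and 112 with mouse as a replicate block, and none changed direction. Of 24 more named only as members of a count, 12 kept it under every alternative, 17 with each library left out (all but Bak1, Ccl4, Cd86, Cxcl13, Pkd2, S100a16 and Tlr12) and 19 with the block. The counts of 1028 and 1060 genes stayed within 1.5 times except in the block over the 3 shared mice (494 and 668). They were 695 and 808 with mouse as a replicate block on all libraries, 1491 and 1120 by DESeq2, and 1482 and 1434 by limma. Leaving out 1 library gave 781 to 1005 and 865 to 1119. RLE factors and DESeq2 moved the median log2 fold change of all genes from 0.05 to 0.15. Without the filter, median correlations were 0.734 across the cell types, 0.824 among microglia and 0.826 among macrophages. The counts of the interaction with genotype, 7 larger and 11 smaller, were 117 and 136 by DESeq2, 18 and 35 by limma, 81 and 124 without the filter, 3 and 4 at the stricter thresholds of 0.05 and 2-fold, 0 and 3 with the replicate block, and 2 to 17 and 4 to 46 with 1 library left out. Those of the interaction with age, 3 and 0, were 67 and 59 by DESeq2, 44 and 74 without the filter, 8 and 1 in the 14 CReCOM libraries alone, 1 larger by limma, and 2 to 10 and 0 to 4 with 1 library left out. The cause was not tested. Levels under 0.457 to 0.715 CPM are below 3 counts and limit the folds of genes at or near 0 in 1 population.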
